A study of Mus musculus with 15 samples.

Results

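The de novo lipogenesis genes Fasn, Acaca, Acacb, Acly, Elovl6, Me1, Srebf1, Mlxipl, Thrsp and Pnpla3, were followed through RNA-Seq libraries of 5 tissues and 3 diets. They were chosen by gene symbol. Each of the 10 had a locus of its own in the table, and they are 10 of 23589 loci with a gene name. The libraries came from male C57BL/6 mice. AL mice were fed ad libitum and were 5 months of age. DR mice were given 60% of the AL food, a 40% restriction, for 1 month from 4 months of age and were 5 months of age as well. DR-AL mice had the same month of restriction, were then fed AL for 2 months, and were 7 months of age, so that refeeding and age cannot be told apart. The tissues were liver, fat of the epididymal depot, colon (labelled intestinal mucosa), hippocampus and hypothalamus. RNA pooled from 5 mice gave 1 library per tissue and diet, 15 in all. No difference between diets within a tissue has a replicate check, and every interval given is a 95% Clopper-Pearson interval that covers counting error only.

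De novo lipogenesis builds fatty acids from the carbon of sugars. Citrate that leaves the mitochondrion is cleaved to acetyl-CoA, acetyl-CoA is carboxylated to malonyl-CoA, and fatty acid synthase condenses these units into palmitate at the expense of NADPH. In liver and fat the enzymes are transcribed together under the control of SREBP-1c, which responds to insulin, and ChREBP, which responds to glucose metabolites.

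Levels are given as CPM, the reads counted on a locus per 1000000 reads on all named loci of the library, which ranged from 21767088 to 40500130 reads. The libraries carried the markers of their tissues. Hepatocyte markers, 12 loci, summed to between 71931 and 90029 CPM in the 3 liver libraries, and adipocyte markers to between 32190 and 45837 CPM in the 3 fat libraries. Colon epithelium markers summed to between 31567 and 31728 CPM in the colon. A locus listed at 0 need not be silent, since Alb, the gene of serum albumin, was listed at 0 in every library, the liver included.

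The upstream sequences are shown of Thrsp, Fasn, Elovl6 and Acly, the members with the largest measured folds of DR over AL in the liver (Thrsp and Fasn) or in fat (Elovl6, Acly and Fasn). Those of Mlxipl are shown because it was the member with matches to a sterol element and an E-box. No motif was found in all the windows shown. They are the 250 bases before a RefSeq start site on GRCm38.p6, 5′ to 3′ on the strand of the gene. Capitals mark matches, on either strand, to TCACNCCAC (a sterol element form), CACGTG (an E-box), CCAAT and GGGCGG (a GC box). All 10 members matched the RefSeq table, with 14 start sites. The windows are chr11:120824548-120824797 (Fasn, minus strand), chr11:100528001-100528250 (Acly, minus strand), chr7:97417551-97417800 (Thrsp, minus strand), chr3:129532136-129532385 (Elovl6, plus strand), chr5:135106641-135106890 and chr5:135089640-135089889 (Mlxipl, plus strand).
Fasn: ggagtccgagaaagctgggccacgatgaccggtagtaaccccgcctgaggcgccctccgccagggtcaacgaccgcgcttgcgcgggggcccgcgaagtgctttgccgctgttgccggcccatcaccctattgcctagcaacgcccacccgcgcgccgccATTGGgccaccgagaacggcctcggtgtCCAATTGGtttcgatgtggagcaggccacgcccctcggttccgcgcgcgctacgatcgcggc
Elovl6: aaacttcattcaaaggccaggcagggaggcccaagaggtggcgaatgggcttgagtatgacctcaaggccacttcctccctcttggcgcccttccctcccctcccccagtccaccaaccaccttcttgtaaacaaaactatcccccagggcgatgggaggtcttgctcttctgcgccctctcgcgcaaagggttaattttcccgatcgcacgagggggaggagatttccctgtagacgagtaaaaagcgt
Acly: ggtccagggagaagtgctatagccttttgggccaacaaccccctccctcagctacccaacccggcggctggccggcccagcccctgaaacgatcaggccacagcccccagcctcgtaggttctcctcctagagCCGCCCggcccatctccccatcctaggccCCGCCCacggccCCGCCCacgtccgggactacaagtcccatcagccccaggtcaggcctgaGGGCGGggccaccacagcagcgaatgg
Thrsp: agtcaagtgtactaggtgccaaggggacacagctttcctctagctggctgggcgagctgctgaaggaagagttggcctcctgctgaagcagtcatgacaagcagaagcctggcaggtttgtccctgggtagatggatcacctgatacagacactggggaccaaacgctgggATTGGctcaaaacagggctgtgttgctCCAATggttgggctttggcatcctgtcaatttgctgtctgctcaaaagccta
Mlxipl, start 1: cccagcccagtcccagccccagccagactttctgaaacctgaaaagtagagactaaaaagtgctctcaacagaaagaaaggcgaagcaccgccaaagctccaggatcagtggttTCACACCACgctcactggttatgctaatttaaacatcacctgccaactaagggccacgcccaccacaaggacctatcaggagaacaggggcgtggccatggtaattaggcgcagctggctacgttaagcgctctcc
Mlxipl, start 2: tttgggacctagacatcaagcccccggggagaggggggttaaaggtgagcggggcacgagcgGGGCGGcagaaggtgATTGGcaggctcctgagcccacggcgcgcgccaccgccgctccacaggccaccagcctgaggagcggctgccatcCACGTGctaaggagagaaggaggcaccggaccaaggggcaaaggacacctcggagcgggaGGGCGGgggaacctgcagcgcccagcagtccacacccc

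CCAAT was present in 8 of the 14 windows, those of 7 genes, against 33.8% of all 32851 windows of this length, and GGGCGG in 6 windows of 5 genes, against 32.7%. Fasn held 3 CCAAT matches, of which the last pair overlap in one run, and Thrsp held 2. The sterol element form was found in 1 member window, at the first start of Mlxipl, against 1.05% of all windows. The E-box was found at the other Mlxipl start, against 6.02%. Acaca and Elovl6 held none of the 4 motifs in this window. The only Acaca window, chr11:84195188-84195437, lies inside the annotated gene, so the annotated 5′ end of Acaca was not scanned. The same holds for Acacb, whose only window, chr5:114165268-114165517, held 1 of the CCAAT matches. The first Mlxipl window, with the sterol element form, also lies inside its annotated gene, while the other Mlxipl window lies just before the annotated start. These are matches of letters and not measured binding.

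The first comparison asked what 1 month of DR did to the genes. In the liver, 9 of the 10 members were called higher in the DR library than in the AL library and 0 lower. Calls were made with the study's Z test on counts, with the false discovery rate held under 0.05 and a ratio of at least 5 to 4 in either direction. The test compares 2 libraries, not the diets. By the same rule 18.1% of the 17408 genes tested in the liver were called higher and 9.93% lower. The median log2 fold of the members was 1.41, beside 0.10 over all genes tested. Without Pnpla3, which was listed at 0 in AL liver, the median of the other 9 was 1.37. In fat, all 10 members were called higher and 0 lower, beside 35.3% and 10.4% of 20382 genes. Their median log2 fold was 2.26, beside 0.23 over all genes tested. Together the members took 0.0727% of the named reads in AL liver and 0.240% in DR liver. In fat they took 0.384% under AL and 3.37% under DR.

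After refeeding the order turned. All 10 members were called lower in the DR-AL library than in the DR library, in the liver and in fat alike. Over all genes tested, 24.0% were called lower and 16.9% higher in the liver, and 13.3% lower and 38.4% higher in fat. The median log2 fold of the members was -2.27 in the liver, -1.91 without Pnpla3, and -3.65 in fat, where the medians over all genes tested were -0.11 and 0.28. The 10 members took 0.0469% of the named reads in DR-AL liver and 0.179% in DR-AL fat, below the AL libraries of both tissues.

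**Figure D1:**
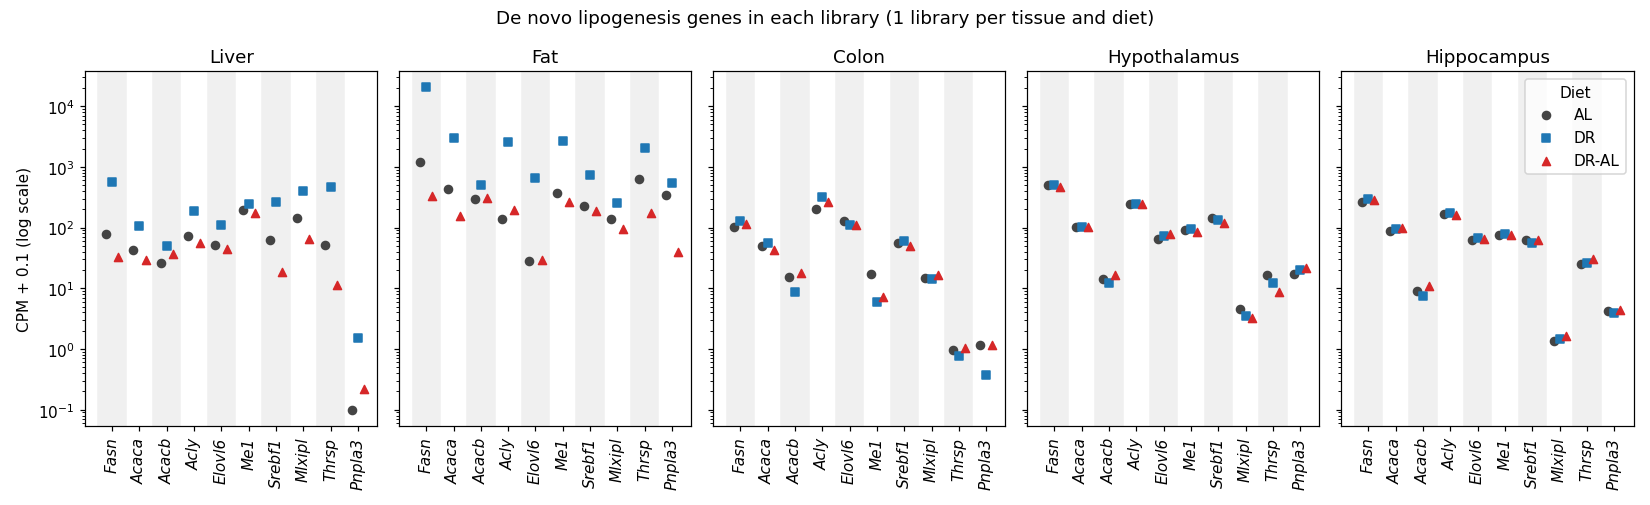
Level of each member in each of the 15 libraries, as CPM plus 0.1 on a log axis, 1 point per library, with dark circles, blue squares and red triangles for AL, DR and DR-AL. In liver and fat the DR point lies above the other 2 for every member, from 1.42 CPM for Pnpla3 in liver to 20731 CPM for Fasn in fat, and the points nearly coincide in the hypothalamus and hippocampus for most members.

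Fasn, fatty acid synthase, carries out every step from malonyl-CoA to palmitate (GRCm38 chr11:120805846-120824547, minus strand, GENCODE M21). Its level was 79.0 CPM in AL liver, 564 in DR liver and 32.4 in DR-AL liver. In fat it was 1220, 20731 and 336 CPM. The DR library stood above AL by 7.14-fold in the liver (interval 6.81 to 7.49) and by 17.0-fold in fat (16.8 to 17.2). DR-AL stood 17.4-fold below DR in the liver and 61.7-fold below it in fat, and below AL by 2.44-fold and 3.63-fold. Among genes averaging at least 10 counts over the pair of libraries, Fasn had the 21st lowest fold of 12866 in the liver and the 24th lowest of 17406 in fat from DR to DR-AL.

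Acaca and Acacb encode the acetyl-CoA carboxylases. Acaca (chr11:84129672-84401651, plus strand) makes the cytosolic malonyl-CoA that fatty acid synthase uses. Its level was 43.4, 108 and 28.8 CPM in AL, DR and DR-AL liver, and 425, 2983 and 158 CPM in fat. The DR level was 2.50-fold the AL level in the liver (2.33 to 2.69) and 7.02-fold in fat (6.88 to 7.16). Acacb (chr5:114146535-114250761, plus strand) encodes the isoform at the mitochondrion, whose malonyl-CoA holds back the import of fatty acids for oxidation. Its level was 25.8, 49.9 and 36.9 CPM in the liver and 301, 496 and 312 CPM in fat. The DR folds over AL were 1.94 (1.75 to 2.14) and 1.65 (1.60 to 1.70), smaller than those of Acaca in the same libraries with intervals that do not overlap. Among members with reads in every liver library, Acacb alone was called higher in DR-AL than in AL liver, by 1.43-fold (1.29 to 1.59), and in fat those libraries differed by 1.04-fold (1.01 to 1.07), under the threshold.

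Acly, ATP citrate lyase, supplies cytosolic acetyl-CoA (chr11:100476353-100528000, minus strand). The liver libraries held 73.3, 189 and 56.6 CPM under AL, DR and DR-AL, and the fat libraries 141, 2562 and 194 CPM. DR exceeded AL by 2.58-fold in the liver (2.44 to 2.73) and by 18.2-fold in fat (17.6 to 18.8). Elovl6 lengthens palmitate to stearate (chr3:129532355-129638495, plus strand). Its liver levels were 52.3, 110 and 43.7 CPM, a 2.11-fold difference between DR and AL (1.97 to 2.26). In fat it was 28.5, 646 and 29.1 CPM, and the 22.7-fold difference (21.1 to 24.5) was the largest of the 10 members there. The AL and DR-AL fat libraries differed by 1.02-fold for Elovl6 (0.925 to 1.13) on the totals of named reads. This depended on the scale, since the log2 fold was 0.03 on those totals, 0.48 with the liver part of the fat libraries removed, 0.54 per adipocyte marker read (both described below) and -1.04 on the deposited FPKM with 1 added. Acly was 1.38-fold higher in DR-AL than in AL fat (1.32 to 1.44) and 1.30-fold lower in DR-AL than in AL liver.

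Me1, cytosolic malic enzyme, yields NADPH for the synthase (chr9:86581371-86695953, minus strand). Of the members it differed least between DR and AL liver, with 194, 241 and 176 CPM under AL, DR and DR-AL. The DR fold over AL was 1.24 (1.19 to 1.29), just under the threshold, and Me1 was called when the total left out the 10 most abundant genes. In fat the levels were 374, 2628 and 261 CPM, a fold of 7.03 (6.88 to 7.18) between DR and AL and a 10.1-fold lower level in DR-AL than in DR.

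The regulators differed in the same directions, by smaller folds of DR over AL in fat than in the liver. Srebf1 encodes SREBP-1 (chr11:60199089-60222581, minus strand). Its locus in the table spans 116 kb, where the annotated gene spans 23.5 kb, so that reads of other transcripts on that strand may be included. Srebf1 levels were 62.8, 260 and 18.5 CPM in the liver and 224, 735 and 185 CPM in fat. The DR folds over AL were 4.14 (3.91 to 4.38) and 3.28 (3.19 to 3.38). DR-AL liver was 14.0-fold below DR and 3.38-fold below AL, whereas DR-AL fat was 3.98-fold below DR and 1.21-fold below AL, the last not called. Mlxipl encodes ChREBP (chr5:135089890-135138382, plus strand) and was at 145, 399 and 64.4 CPM in the liver and 137, 254 and 96.4 CPM in fat. The DR folds over AL were 2.74 (2.64 to 2.85) and 1.85 (1.78 to 1.93), and DR-AL was below AL by 2.26-fold in the liver and 1.42-fold in fat.

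Thrsp (Spot 14) is a nuclear and cytosolic protein that rises with lipogenic stimuli (chr7:97412938-97417730, minus strand). It had the largest liver differences of the members with reads in every liver library. The levels were 51.3, 475 and 11.4 CPM in AL, DR and DR-AL liver and 636, 2078 and 174 CPM in fat. DR stood 9.27-fold above AL in the liver (8.75 to 9.84) and 3.27-fold above it in fat (3.21 to 3.32). DR-AL liver was 41.5-fold below DR and 4.48-fold below AL, the 11th lowest fold of 12866 genes from DR to DR-AL.

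Pnpla3 encodes a lipid droplet protein and is a known SREBP-1c target (chr15:84167837-84187236, plus strand). It differed most between the tissues. The liver libraries held 0, 31 and 3 reads under AL, DR and DR-AL, or 0, 1.42 and 0.122 CPM. No fold is given against the AL library, where it was listed at 0, and the call of DR-AL above AL, 3 reads against 0, lies at the limit of 3 reads that a count of 0 allows. From DR to DR-AL its log2 fold in the liver was -3.33 with an interval of -5.89 to -1.86. In fat the levels were 350, 543 and 40.2 CPM. DR was 1.55-fold above AL in fat (1.51 to 1.59), the smallest DR fold of the members there, while DR-AL was 8.72-fold below AL, the largest drop below AL of the 10.

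**Figure D2:**
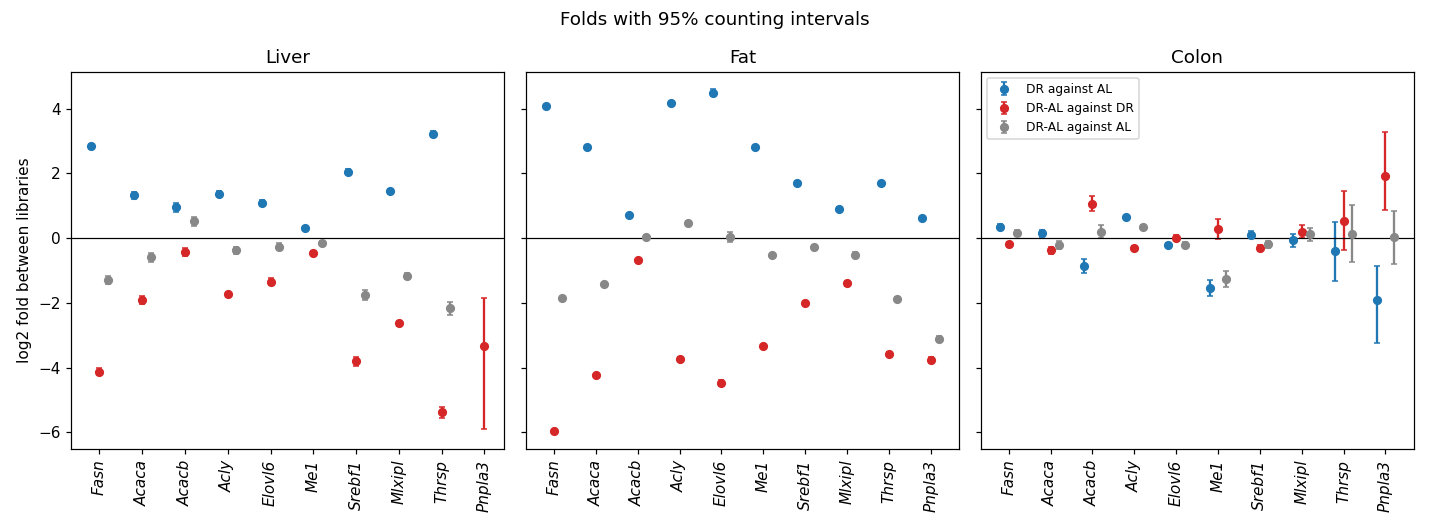
Log2 fold between libraries for each member in liver, fat and colon, with bars for the 95% counting interval, blue for DR against AL, red for DR-AL against DR and grey for DR-AL against AL. Folds with a library at 0 reads (Pnpla3 against AL liver) are left out. In liver and fat the blue points lie above 0 and the red points below it for every member drawn. In the colon the points lie on both sides of 0, furthest from it for Me1, Acacb and Pnpla3, and Acly lies above 0 in DR against AL.

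Against AL, the refed libraries did not hold the DR pattern. In the liver, 6 members were called lower in DR-AL than in AL (Fasn, Acaca, Acly, Srebf1, Mlxipl and Thrsp) and 2 higher (Acacb and Pnpla3, the latter on 3 reads against 0), beside 15.8% and 15.1% of all genes tested. In fat, 6 were lower (Fasn, Acaca, Me1, Mlxipl, Thrsp and Pnpla3) and 1 higher (Acly), beside 11.9% and 46.1%. The median log2 fold of the members was -0.48 in the liver, -0.59 without Pnpla3, and -0.51 in fat, where the medians over all genes tested were 0.00 and 0.39. The 3 comparisons of a tissue share libraries and are not independent of each other. In pooled tissue RNA, fewer cells of a type and less RNA per cell cannot be told apart.

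The fat libraries differed in more than diet. By a rule that left out the members, 168 genes abundant in the liver and nearly absent from the colon and both brain regions were found in the fat libraries. Their median share of the level in AL liver was 14.5% in AL fat, 0.184% in DR fat and 0.0703% in DR-AL fat. Hepatocyte markers summed to 20109, 9725 and 6257 CPM in AL, DR and DR-AL fat, with Alb listed at 0 in all 3. Cyp2e1 and Trf carried most of the sum, at 8686, 5240 and 4103 CPM and at 5160, 4415 and 2142 CPM. The other 9 markers lay between 199 CPM (Apoc3) and 1288 (Ahsg) in AL fat, between 3.33 (Tat) and 15.2 (Apoa2) in DR fat and between 0.548 (Fgb) and 3.25 (Apoc3) in DR-AL fat. Adipocyte markers, 12 loci of 10 genes, summed to 45837, 37747 and 32190 CPM, with 1 locus at 0 in DR fat, a second Lipe locus that had at most 2 reads in the others. Testis germ cell markers, 8 loci, summed to 5.26, 585 and 2826 CPM and epididymis markers, 8 loci, to 908, 3250 and 5118 CPM, with Cst8 and Lcn9 at 0 in AL fat and Lcn9 at 0 in DR-AL fat. Crisp1 carried most of that sum, at 846, 2802 and 4584 CPM. Lcn8, Lcn9, Rnase10, Defb20 and Lcn5, 5 of the 8, were instead highest in DR fat, at between 21.4 and 43.9 CPM, as the members were. Smooth muscle markers, 5 loci, stood at 1094, 3310 and 1005 CPM, highest in DR fat as the members were. Macrophage markers, 5 loci, stood at 183, 255 and 217 CPM.

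The fat folds were recomputed with the liver part removed and on another total. With the liver part of each fat library subtracted, which took between 0% (Pnpla3) and 26.6% (Elovl6) of the AL fat level, the log2 fold of DR over AL was 4.10 for Fasn, 4.95 for Elovl6 and 0.63 for Pnpla3. Scaling to the reads on adipocyte markers moves every gene by the same amount, upwards for DR over AL because that sum was lower in DR fat. The log2 folds then ran from 0.91 for Pnpla3 to 4.78 for Elovl6. The lower sum came from Fabp4, at 17582 CPM in AL and 12313 in DR fat, Plin4, Adipoq and Cidec. The other adipocyte markers, Cfd, Lep, Lipe, Plin1, Pparg and Retn, were higher in DR than in AL fat. The upward move therefore depends on which markers are summed. Between DR-AL and DR the same scaling gave log2 folds from -5.72 for Fasn to -0.44 for Acacb, and all 10 were still called lower although the scaling moved them towards 0. Between DR-AL and AL it left Me1 and Mlxipl at log2 folds of -0.01 and 0.00, where the totals had given -0.52 and -0.51. It put Acacb and Elovl6 above AL, at 0.56 and 0.54. The part of smooth muscle, testis and epididymis RNA in the member levels was not tested.

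**Figure D3:**
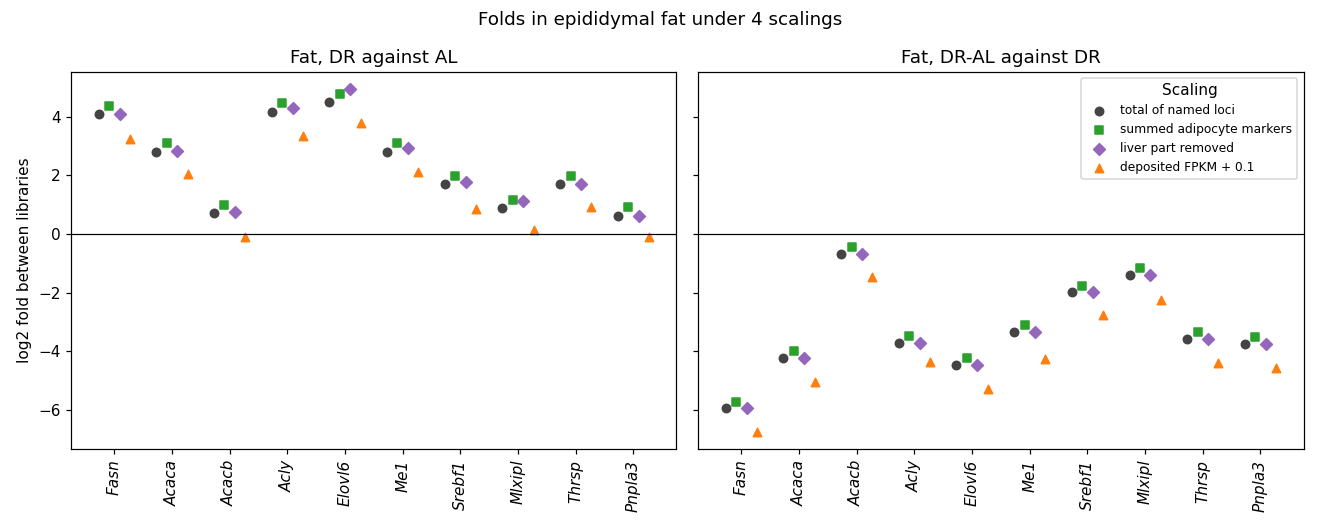
Log2 folds of the members in epididymal fat, DR against AL on the left and DR-AL against DR on the right, under 4 scalings, 1 marker shape each. The first 3 scalings have the same sign for each member. For Elovl6 in DR against AL they were 4.50 on the totals, 4.78 per adipocyte marker read and 4.95 with the liver part removed. The deposited FPKM lie lower, below 0 for Acacb and Pnpla3 in DR against AL.

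The deposited FPKM values gave lower folds in fat. Relative to CPM and to AL fat, FPKM were shifted by a median log2 of -0.73 in DR fat and -1.62 in DR-AL fat over 16447 genes, and by -0.78 and -1.63 for the members. On FPKM with 0.1 added, Fasn still stood above AL in DR fat, but Acacb and Pnpla3 had log2 folds of -0.11 and -0.09, to be read against the shift of -0.73. In the other tissues the shift was at most 0.13 in size.

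Levels of different genes were compared per length, on the FPKM scale within a library. In AL liver Me1 was highest at 143 FPKM, followed by Thrsp at 106, Mlxipl at 66.2 and Acly at 48.5, with Fasn at 16.7. In DR liver Thrsp led at 896 FPKM, followed by Me1 at 180 and Mlxipl at 163, and Fasn stood at 107. In fat Thrsp was highest in each library, at 403 FPKM under AL and 769 under DR, with Fasn at 80.5 and 767. In DR-AL fat Thrsp stood at 35.8, Me1 at 23.8 and Acly at 14.5 FPKM, and Fasn at 7.05.

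Genes that supply carbon and NADPH moved with the members in the liver. Of 11 such genes, 9 were called higher in DR than in AL liver and 0 lower, with a median log2 fold of 0.69, beside the 18.1% and 9.93% of all genes given above. In DR-AL liver 9 were called lower than in DR and 0 higher, with a median of -1.23, beside 24.0% and 16.9%. Pklr, liver pyruvate kinase, was at 88.3, 233 and 33.4 CPM in AL, DR and DR-AL liver. Acss2, which makes acetyl-CoA from acetate, was at 82.7, 330 and 58.7 CPM. Khk, which phosphorylates fructose, was at 360, 680 and 263 CPM. Tkt (on a locus with more than 1 gene name) and Pgd, of the pentose phosphate pathway, were at 124, 199 and 68.0 CPM and at 20.1, 39.0 and 15.3 CPM. Slc25a1, the carrier that exports citrate from the mitochondrion, was at 174, 295 and 126 CPM. All 6 had their highest value under DR and their lowest under DR-AL, but they were named for large folds in these same comparisons.

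In fat, 9 of the 11 were called higher in DR than in AL and 2 lower, with a median log2 fold of 1.24, beside 35.3% and 10.4% of all genes. Acss2 was at 73.9, 582 and 39.3 CPM, Tkt at 620, 3286 and 341 CPM, Pgd at 172, 603 and 166 CPM and Slc25a1 at 286, 1025 and 95.3 CPM. The 2 that were lower were Khk, at 58.1 and 33.5 CPM in AL and DR fat, and Pklr, at 16.6 and 8.63 CPM. Both are abundant in the liver, whose genes were at 14.5% of their AL liver level in AL fat as given above, and the part of liver RNA in these differences was not tested. From DR to DR-AL fat, 10 of the 11 were called lower and 0 higher, with a median log2 fold of -1.86, beside 13.3% and 38.4%.

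Genes of chain modification and triglyceride assembly, 15 loci of 14 genes, did not share one direction in the liver. In the liver 5 were called higher and 5 lower in DR than in AL, beside 18.1% and 9.93% of all genes, and 7 higher and 5 lower in DR-AL than in DR, beside 16.9% and 24.0%. Lpin1, a phosphatidate phosphatase, was at 136, 483 and 80.3 CPM in AL, DR and DR-AL liver, and Dgat2, which makes triglyceride, at 426, 594 and 267 CPM. Elovl5, which lengthens polyunsaturated fatty acids, took the opposite course with 421, 332 and 1231 CPM. Acsl1, which activates fatty acids, was at 2110, 801 and 1801 CPM. In fat 8 were called higher and 2 lower in DR than in AL, beside 35.3% and 10.4%. From DR to DR-AL fat, 1 was called higher and 8 lower, with a median log2 fold of -0.42, beside 38.4% and 13.3%. Scd1, at 0 in DR fat, is among the loci compared. Dgat2 was at 519, 1475 and 216 CPM and Scd2, a stearoyl-CoA desaturase on a locus with more than 1 gene name, at 78.6, 544 and 343 CPM. Scd1, the main desaturase of liver and fat, was listed at 0 in the DR library of all 5 tissues and at 4288 and 28838 CPM in AL liver and fat, so no fold is given for it. Scd1 is counted among the 5 and the 2 called lower in DR and among the 7 called higher in DR-AL liver.

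Of 16 genes that control SREBP and ChREBP, 3 were called higher and 2 lower in DR than in AL liver, shares close to the 18.1% and 9.93% of all genes. Mid1ip1, a relative of Thrsp, was at 16.5, 89.7 and 9.68 CPM in the liver, and Insig1, which retains SREBP in the endoplasmic reticulum and is itself an SREBP target, at 139, 369 and 100 CPM. Insig2 ran the other way, at 175, 72.8 and 597 CPM. In fat 5 were called higher and 4 lower, beside 35.3% and 10.4%, with Insig1 at 121, 359 and 63.7 CPM. Mid1ip1 was at 35.7, 100 and 156 CPM in fat, highest in DR-AL. So were the summed testis germ cell and epididymis markers of fat, and the part of such RNA in the Mid1ip1 levels was not tested. Irs2, an adaptor of the insulin receptor, was at 140, 62.7 and 120 CPM there, and Mlx, the partner of ChREBP, also on a shared locus, at 103, 148 and 72.8 CPM.

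Genes that oppose or act beside acetyl-CoA carboxylase were 10 with Acacb, itself a member. In DR against AL liver 1 was called higher, which was Acacb, and 2 lower, beside 18.1% and 9.93% of all genes. In fat 2 were called higher, Acacb among them, and 1 lower, beside 35.3% and 10.4%. Cpt1a, the carnitine transferase that malonyl-CoA inhibits, was at 696, 321 and 740 CPM in the liver and at 225, 67.2 and 89.0 CPM in fat. In both tissues it was lower in the DR library than in AL, opposite to the members. Liver genes were at 14.5% of their AL liver level in AL fat, and the part of liver RNA in the fat difference of Cpt1a was not tested. Cpt1c, a brain form, was at 5.42, 11.0 and 24.8 CPM in fat. The summed testis germ cell and epididymis markers rose in the same order, and the part of such RNA in the Cpt1c levels was not tested.

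**Figure D4:**
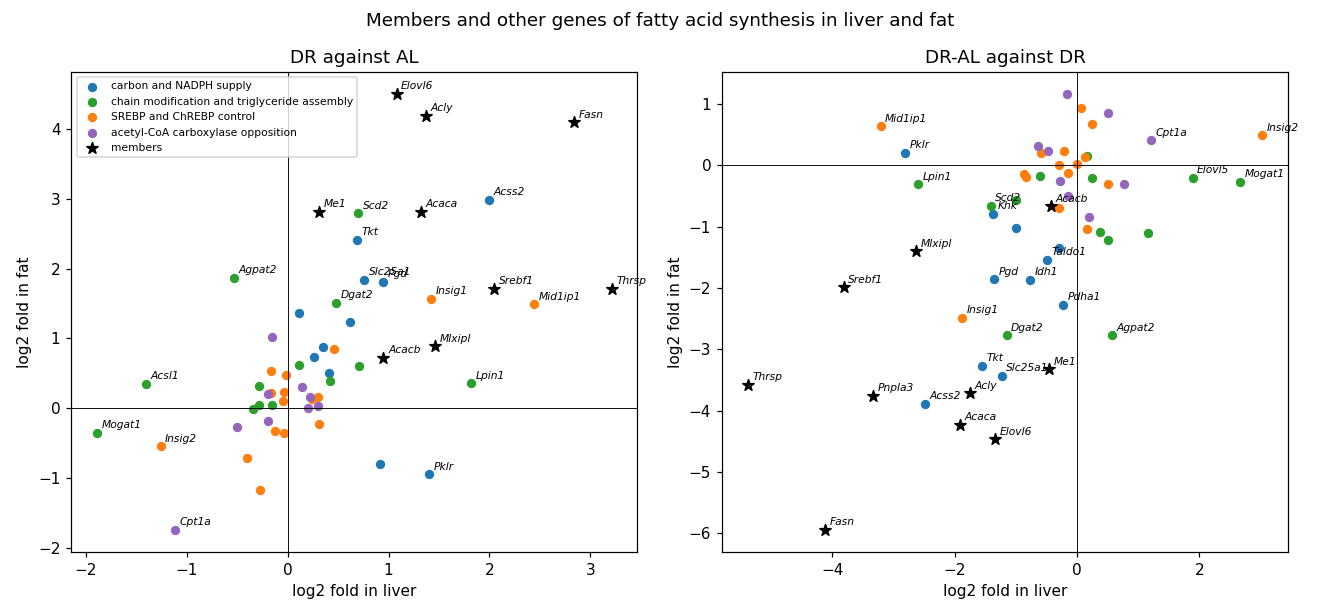
Log2 fold in liver (horizontal) and in fat (vertical) of the members (stars) and of the 4 lists of related genes (coloured points), DR against AL on the left and DR-AL against DR on the right. Genes with a library at 0 reads in the comparison, Scd1 among them, are left out. The members and most carbon and NADPH supply genes lie in the upper right on the left and in the lower left on the right, while Cpt1a and Insig2 lie on the lower left in the left panel.

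In the colon 2 members were called higher in DR than in AL (Fasn and Acly) and 3 lower (Acacb, Me1 and Pnpla3), beside 9.05% and 10.6% of 18242 genes. Acly was at 205, 319 and 261 CPM in AL, DR and DR-AL colon, a DR fold of 1.56 (1.51 to 1.61), and Fasn at 101, 129 and 113 CPM, a fold of 1.28 (1.22 to 1.34). Me1 was at 17.1, 5.86 and 7.15 CPM, a log2 fold of -1.54 (-1.79 to -1.30), the reverse of its difference in fat. Acacb was at 15.4, 8.44 and 17.7 CPM and Pnpla3 at 1.05, 0.269 and 1.08 CPM, which is 28, 9 and 27 reads. Adipocyte markers summed to 177, 113 and 124 CPM in the same libraries. Pparg carried most of that sum, at 114, 81.1 and 68.0 CPM, and was lowest in DR-AL. Cidec was at 29.2, 17.2 and 18.7 CPM, Adipoq at 2.67, 0.658 and 2.56 CPM and Plin1 at 1.05, 0.120 and 1.52 CPM. These 3 were lowest in DR, as Acacb and Pnpla3 were. The part of adipocyte RNA in the differences of Acacb and Pnpla3 was not tested. From DR to DR-AL colon 2 members were called higher (Acacb and Pnpla3) and 1 lower (Acaca), beside 6.78% and 7.68%. From AL to DR-AL 1 was higher (Acly) and 1 lower (Me1), beside 5.84% and 8.51%.

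In the hypothalamus 0 members were called higher and 1 lower in DR than in AL, beside 4.33% and 2.73% of 19320 genes. That member was Thrsp, at 16.4, 12.2 and 8.62 CPM under AL, DR and DR-AL, a log2 fold of -0.43 (-0.62 to -0.24). From DR to DR-AL 1 was called higher (Acacb) and 1 lower (Thrsp), beside 2.82% and 6.80%, and from AL to DR-AL 0 higher and 2 lower (Thrsp and Mlxipl), beside 6.06% and 9.03%. Fasn held between 465 and 507 CPM there and Acaca between 103 and 104. In the hippocampus 0 members were called in either direction in DR against AL, beside 1.37% higher and 2.67% lower of 18804 genes. From DR to DR-AL 1 was called higher (Acacb) and 0 lower, beside 3.63% and 1.26%, and from AL to DR-AL 0 in either direction, beside 4.00% and 2.17%. Acacb was lowest in the DR library in the colon (8.44 CPM), the hypothalamus (12.2) and the hippocampus (7.30), and highest in it in liver and fat.

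The tissue levels of the members were compared over the 3 libraries of each tissue. Median CPM placed fat first for Fasn, Acaca, Acacb, Me1, Srebf1, Thrsp and Pnpla3, the liver first for Mlxipl, and the colon first for Acly and Elovl6. Fasn ranged from 336 to 20731 CPM in fat, from 465 to 507 in the hypothalamus and from 32.4 to 564 in the liver, so the ranges overlapped. Mlxipl was between 64.4 and 399 CPM in the liver and between 1.28 and 1.55 in the hippocampus, without overlap. By the quasi-likelihood test of edgeR over the 15 libraries, with diet as a term, 5 members differed between fat and liver, beside 70.2% of 17476 genes. Acacb, Acaca, Fasn and Pnpla3 were higher in fat and Mlxipl lower, with log2 folds of 2.14 (SE 0.32), 2.82 (0.71), 3.58 (1.08), 8.10 (1.17) and -1.37 (0.44) and edgeR adjusted p of 0.00015, 0.00454, 0.0121, 0.000114 and 0.0175. Without the AL libraries Fasn and Mlxipl were no longer called, and without the DR libraries 8 members were. Between colon and liver 4 members were lower in the colon (Acacb, Me1, Mlxipl and Thrsp), beside 64.0%, with log2 folds of -2.17, -5.03, -4.21 and -7.56 and edgeR adjusted p of 0.00014, 0.000168, 2.44e-05 and 0.000296. Between hypothalamus and hippocampus 0 differed, beside 30.7%, with 2 (Mlxipl and Pnpla3) at an unadjusted p under 0.05 and 0 called by DESeq2. Of the 17476 genes, 7120 had an unadjusted p under 0.05 and 6171 were called by DESeq2.

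A difference of diet shared by the 5 tissues was tested in the same libraries, with tissue as a term. The tissues came from the same mice, so they are not independent animals. By the quasi-likelihood test of edgeR 0 members were called for DR against AL, for DR-AL against DR and for DR-AL against AL, beside 0.00610%, 0.00610% and 0% of 16381 genes. The single gene called was Scd1, in the first 2, on its listed zeros. At an unadjusted p under 0.05 there were 1, 4 and 0 members, beside 588, 616 and 751 of the 16381 genes. DESeq2 called 0 members, beside 11, 9 and 6 genes. It had 4, 7 and 0 members at an unadjusted p under 0.05, beside 800, 731 and 975 genes. The estimates for Fasn were a log2 fold of 1.88 (SE 0.86) for DR against AL, with an unadjusted edgeR p of 0.0534, and -2.15 (SE 0.92) for DR-AL against DR, with an unadjusted edgeR p of 0.0393. In a fit of liver and fat only, chosen after the data were seen, 0 members were called, beside 21, 1 and 102 of 17015 genes. In that fit 7, 8 and 1 members had an unadjusted p under 0.05, beside 1433, 948 and 2058 genes. The median log2 fold of the members for DR against AL was 0.91 over 5 tissues, 0.40 without fat and 0.43 without liver, and for DR-AL against DR it was -1.23, -0.52 and -0.96.

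The pattern of each member was compared with that of the other 9 over the 6 liver and fat libraries, on log2 CPM centred on the tissue mean. These correlations describe libraries that share mice and diets. Pearson's r ran from 0.775 for Acacb and 0.791 for Pnpla3 to 0.975 for Acaca and 0.999 for Fasn. Outside the lists, the 10 genes of 8713 with the profile most like the members' mean were Foxred1 (r = 0.997), Snrpn with Snurf on 1 locus (0.996), Sphk2 and Atad3a (0.994), Loh12cr1 and Lsm12 (0.991), Tsen34 (0.990), Gypc (0.989), Mrpl30 and Pik3r1 (0.988). The likeness is one of pattern and not of size. Foxred1 was at 30.6, 36.0 and 29.3 CPM in AL, DR and DR-AL liver. Pik3r1, the regulatory subunit of PI3-kinase, was at 44.9, 88.1 and 37.1 CPM in the liver and at 147, 293 and 86.3 CPM in fat. Over all 15 libraries the 10 most alike were Gm6484 (0.978), Pik3r1 (0.975), Gapdh (0.964), Ndufs8 and Cs (0.955), Dmpk (0.952), Bhlhe40 (0.951), Loh12cr1 (0.949), Lrtm1 and Slc25a44 (0.948). Gapdh, which has many processed copies that can share its reads, was at 1019, 1639 and 992 CPM in the liver, and Cs, citrate synthase, at 114, 157 and 87.9 CPM.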

How the data were processed

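RNA-Seq libraries of 5 tissues and 3 diets were analysed, 1 library of pooled RNA each. According to the methods, the authors kept the strand, aligned reads to mm10 and removed duplicate reads, while the submitters' processing notes name mm9 and DESeq2. Positions in the table are not those of GRCm38, so annotated positions are printed. The authors deposited whole-number counts per locus, without normalization, and FPKM values, scaled by length and library. All 30 columns of values were used. Loci without a gene name, between 0.258% and 1.39% of counts, were left out.

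CPM were computed on named loci. For log2 folds, 0.5 was added to counts brought to a common total within each tissue. The Z test took square roots of counts over totals, with Poisson variance, over genes with at least 1 count in the tissue. Shared effects were fitted with edgeR 4.0.16 (TMM, filterByExpr, tissue and diet), where the SE is the log2 fold divided by the root of the F statistic, and with DESeq2 1.42.0, in R 4.3.3. The Z test and the edgeR fit were each tried on simulated counts, those for the Z test with Poisson variance only, and DESeq2 was not. Liver genes had at least 100 CPM in each liver library and under 1% of the AL liver level in colon and brain. Related genes were named if called at a fold of at least 2 in liver or fat with at least 100 counts, at most 6 per list. Like genes averaged at least 5 CPM in liver and in fat. Other genes named (Scd1 as the shared call, Alb and cell type markers given singly) were chosen after their values were seen. The members and lists were chosen with earlier results of these data known. Some genes of the lists are not reported here. Alternatives were other scalings, a ratio of 2, genes averaging 10 or more counts, edgeR's exact test (biological coefficient of variation 0.1), FPKM, and tissues or diets left out.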

Additional observations from a re-analysis of the deposited data

Results flagged for a closer look

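Some members were called in opposite directions in different tissues under the same comparison of libraries. With 1 library per tissue and diet the differences between tissues were not tested. For DR against AL, the log2 fold of Me1 was 2.81 in fat and -1.54 in the colon, 4.35 apart. Acacb was at 0.95 in the liver and -0.86 in the colon, 1.81 apart, and Pnpla3 at 0.63 in fat and -1.90 in the colon, 2.53 apart, on 28 and 9 reads in AL and DR colon. Thrsp was at 3.21 in the liver and -0.43 in the hypothalamus, 3.64 apart. For DR-AL against DR, Acacb was at 1.07 in the colon and -0.67 in fat, 1.74 apart, and Pnpla3 at 1.93 in the colon and -3.76 in fat, 5.69 apart. For DR-AL against AL, Acly was at 0.46 in fat and -0.37 in the liver, 0.83 apart, and on FPKM it was lower in DR-AL than in AL fat.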

How the results depend on the processing

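In liver and fat the directions of DR against AL and DR-AL against DR held under every scaling of the counts tried, and on FPKM except for Acacb and Pnpla3 in DR against AL fat, at log2 folds of -0.11 and -0.09 with 0.1 added and -0.10 and -0.09 with 1 added. For DR-AL against AL in fat, Acly turned to -1.02 and -0.98 on FPKM and Mlxipl to 0.00 per adipocyte marker read, where Me1 was no longer called. The cause was not tested. With a fold of at least 2, the members called fell to 2, 0, 0 and 0 in colon and hypothalamus for DR against AL and in hypothalamus and hippocampus for DR-AL against DR. For DR-AL against AL they were 5, 4, 1 and 0 in liver, fat, colon and hypothalamus. Calls in liver and fat were lost at that fold as well. For DR against AL these were Acacb in the liver (1.94-fold) and Acacb, Mlxipl and Pnpla3 in fat (1.65, 1.85 and 1.55). For DR-AL against DR they were Acacb and Me1 in the liver (1.35-fold and 1.37-fold lower) and Acacb in fat (1.59-fold lower). The edgeR exact test, run at a variation coefficient of 0.1, called 0 in the hypothalamus for DR against AL, 0 in hypothalamus and hippocampus for DR-AL against DR, and 4, 1 and 1 in liver, colon and hypothalamus for DR-AL against AL. It called 9 and 10 in liver and fat for DR against AL and 8 and 10 for DR-AL against DR. Over all genes it called 1540 of 17408 in the liver and 5838 of 20382 in fat for DR against AL. For DR-AL against DR it called 3963 and 7205 of them. In the hypothalamus it called 233 of 19320 for DR against AL, 366 for DR-AL against DR and 667 for DR-AL against AL. It called 57 of 18804 in the hippocampus for DR-AL against DR. For DR-AL against AL it called 1845 in the liver and 339 of 18242 in the colon. Past the same ratio on FPKM with 0.1 added were 5 members in the colon for DR-AL against DR and 1 in the hippocampus for DR-AL against AL. With 1 added there were 1 and 0 in hypothalamus and hippocampus for DR-AL against DR. DESeq size factors called 4 in the hypothalamus for DR-AL against AL. The shares over all genes at a fold of 2, on FPKM and with DESeq size factors were not computed. Fat against liver gave 3 members without the AL libraries and 8 without the DR libraries, beside 11742 of 18425 and 10020 of 17527 genes. Leaving out loci listed at 0 in 1 library of a tissue and at 1000 or more in another, chosen after the data were seen, changed no member call. No paired analysis was possible because the labels number no replicates within a tissue and diet. The edgeR fits of diet already hold tissue as a term, and without that term they called 0 members as well. Members with at most 31 reads, Pnpla3 in liver and colon and Thrsp in colon, are limited by depth.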

Other observations

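Some loci were listed at 0 in 1 library of a tissue and at 1000 reads or more in another. In colon, hypothalamus and hippocampus the only such locus was Scd1, at 0 in the DR library each time. In the liver there were 8, among them Scd1 and loci of the major urinary protein family (Mup), whose near-identical copies can share reads. In fat there were 67, of which 59 were at 0 in the AL library.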
